A study of Oryza sativa with 2 samples.

Results

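Plants cut many messenger RNAs at sites that pair with a microRNA or another small RNA, and some of the small RNAs found by sequencing match no named microRNA. The cleavage sites described here were those assigned to such unnamed candidates alone. In the deposited table of a rice degradome study the candidates carry names that begin with PC-, while the other small RNAs carry names built on a microRNA family or on an arm of its precursor. A site was taken as 1 transcript and 1 cleavage position with degradome reads, and it was kept where each small RNA paired with it had a PC- name. This gave 164 of 2064 sites (7.95%), on 155 transcripts of 72 of 823 genes (8.75%). Since transcript versions of a gene often share the same reads, the 164 sites came down to 77 distinct cuts of 1007. Of the sites, 163 were paired with 1 PC- name and 1 with a pair of them, and a further 10 sites with both PC- and other names were not included.

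The study compared mesocotyls, the seedling organ that lengthens in the dark and stops in the light, of the indica rice cultivar P25. One library came from seedlings kept for 5 days in the dark, and the other from seedlings of the same dark growth that then had light for 1 h. Both groups grew on Murashige and Skoog medium, and no mutant or transgene is named in the labels. The table lists predicted targets alone, so the tissue could not be checked against marker levels. Each condition had 1 library, so no difference below has a replicate check and none was tested.

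Degradome sequencing reads the 5′ ends of uncapped RNA fragments. Argonaute proteins loaded with a small RNA cut the paired transcript between the bases opposite positions 10 and 11 of the small RNA, counted from its 5′ end, and the downstream fragment then starts at a fixed place. RNA fragments from general decay also have free 5′ ends, so a read at a predicted place does not by itself show what made the cut. Plant microRNAs are mostly cut from hairpin precursors as 21-nucleotide RNAs, and 24-nucleotide small RNAs are best known for guiding DNA methylation at repeats.

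The 8 candidates with member sites in the most genes are printed first, because they account for much of what follows. They are given 5′ to 3′ as in the deposited table, with T for U and with the seed, bases 2 to 8, in capitals.
PC-3p-104941_6: aTGGATGTgggcaatgctagaatg
PC-5p-41501_56: aTATAAGAttttttagcatag
PC-5p-44334_48: cGTCCCAAaatatagttgcct
PC-3p-109443_6: aAATGTGGaaaataatagaatgac
PC-3p-62067_20: tGAGCTCTtcattaaggaca
PC-5p-27722_131: tTTTTTGTtggatgtgacatc
PC-3p-46967_42: gCCATGAAtttgtcaagcgtt
PC-3p-54817_28: tACATTGTtataggatgagtc
No 2 of these 8 had the same seed. PC-3p-104941_6 had sites in 8 genes, PC-5p-41501_56 and PC-5p-44334_48 in 6 each, PC-3p-109443_6 in 4, the next 3 names in 3 each and PC-3p-54817_28 in 2, as had others.

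In all, 136 PC- names were listed with a predicted target, and 43 of them had at least 1 member site, 23 with a 3p and 20 with a 5p name. The 43 names held 42 different seeds, and 1 pair shared one. Of 1890 listed pairs of a PC- name and a transcript, 175 had reads (9.26%, Wilson 95% interval 8.03 to 10.7), against 3087 of 23763 pairs of the other names (13.0%, 12.6 to 13.4). These intervals cover counting error only, and pairs that share a transcript or a small RNA are not independent. The alignment score is a mispairing penalty in which a low value is a better match, and the gap was present in its lower classes. At scores of at most 2, 6 of 117 PC- pairs had reads (5.13%) against 12.7% of the others, and at 2.5 or 3, 11.1% against 19.0%, with intervals that did not overlap. At a score of 3.5 the shares were 8.84% and 10.6%, and at 4 they were 9.16% and 11.1%, with intervals that overlapped. By name, 46 of 136 PC- names (33.8%) and 259 of 498 other names (52.0%) had reads at any listed pair.

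The member sites were weakly paired: 81 of 164 (49.4%) had the highest listed penalty of 4, against 37.2% of the other sites, and 6 (3.66%) had a penalty of 2 or less, against 25.7%. The median penalty was 3.5 in both sets. A site's penalty was the lowest over the small RNAs paired with it, which can lower it at sites with several names. Of the member sites, 163 had 1 name. Of the 1890 listed PC- pairs, with or without reads, 972 had a penalty of 4 and 117 had 2 or less. Weak pairing was thus already present in the predictions. In 149 of 165 member pairs base 10 of the small RNA faced the cut, in 12 it was base 9 and in 4 base 11. This position was part of how the authors listed sites and is no finding.

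The candidates with a member site were mostly 21 nucleotides long. Among the 43, 24 were 21 nucleotides long (55.8%, Wilson 95% interval 41.1 to 69.6) and 10 were 24 long (23.3%, 13.2 to 37.7). Among 90 PC- names listed without reads, 37 were 21 long (41.1%, 31.5 to 51.4) and 41 were 24 long (45.6%, 35.7 to 55.8). The 2 intervals for 24 nucleotides overlapped narrowly, and those for 21 nucleotides overlapped widely. A first base of U, which the main microRNA Argonaute of plants prefers, was found in 18 of the 43 (41.9%) and in 37.8% of the PC- names without reads. A first base of A was found in 15 of the 43 (34.9%) and in 52.2% of those without reads. The median GC content was 38.1% in both sets of PC- names and 47.8% in the other names with reads.

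**Figure D1:**
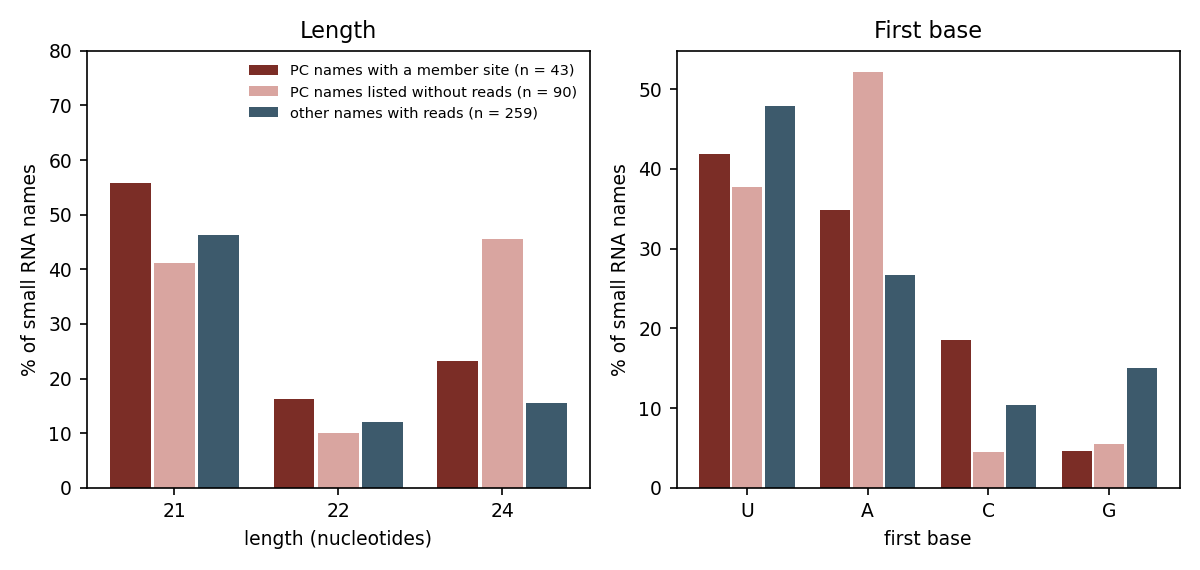
Share of small RNA names, in percent, by length in nucleotides (left) and by first base (right), for PC- names with a member site, PC- names listed without reads and other names with reads. The 24-nucleotide class held 23.3%, 45.6% and 15.4% of the 3 sets.

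Several candidates shared a stretch of bases with each other or with a named small RNA. Pairs that share it on the same strand are printed, because their sites can be hard to credit to 1 small RNA. A stretch of at least 10 shared bases, on either strand, linked 11 of the 43 names to another of the 43, 23 to some PC- name and 11 to a name that is not PC-. These counts include stretches shared on opposite strands and are no count of near copies. In the lines below the shared stretch is in capitals.
PC-5p-78043_11: tgTTTTGTTGCTGGTCATCTAG
osa-MIR827-p5: TTTTGTTGCTGGTCATCTAGct
PC-3p-69767_15: AGACGAATAGTCAAACGTTGTtag
osa-MIR5799-p3_2ss13AG24GT: ataAGACGAATAGTCAAACGTTGT
PC-3p-104941_6: atggATGTGGGCAATGCTAGAAtg
PC-3p-70893_14: aaATGTGGGCAATGCTAGAAagcc
PC-5p-44334_48: cGTCCCAAAATatagttgcct
osa-MIR7694-p5_2ss14AG19AT: tttGTCCCAAAATgtagctac
PC-5p-78043_11 shared 20 bases with the 5′ arm of the MIR827 precursor, starting at base 3 of the first and base 1 of the second. PC-3p-69767_15 shared 21 bases with a listed variant of the MIR5799 3′ arm. PC-3p-104941_6 and PC-3p-70893_14, both with member sites, shared 18 bases.

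Read support was thin. The median member site had 2 raw reads in the libraries together, 73 sites (44.5%) had 1, and the highest had 32. The 1900 other sites also had a median of 2, but 35.8% had 1 read and the highest had 3341. At least 5 reads were found at 35 member sites (21.3%) and at 30.6% of the others. Sites paired with precursor-arm names alone, another group that rests on names other than the mature microRNAs, were close in both measures, with 43.0% at 1 read and 20.9% at 5 or more.

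The read total derived from the deposited values was 15422946 for the dark library. For the light library it was 34051452, which is 2.21 times as many. Levels are therefore given as TPB, the authors' normalized reads over the library total times a fixed number, in which 1 read at 1 matching place is 64.8 TPB in the dark and 29.4 TPB in the light library. The member sites summed to 5257 TPB in the dark library, 1.48% of the TPB at all sites, and to 4953 TPB in the light library, 1.01%. The light over dark ratio of these sums was 0.942, and it was 1.38 over the other sites and 1.08 over the precursor-arm sites. Without the pair of genes ZS05g0596900 and ZS11g0460700, described below, the members' ratio was 1.08, and without ZS12g0097300 it was 0.847. The sign of this small difference thus turned on 2 genes, and it turned with the scaling as well, being 1.07 when the libraries were set level by the median ratio of shared sites and 0.695 by their sum.

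Reads were present at 78 member sites of 31 genes in the dark and at 127 sites of 58 genes in the light library. If the light library had been as shallow as the dark one, 87.4 of its sites would be expected to keep a read. Both libraries held reads at 41 sites (25.0%, Wilson 95% interval 19.0 to 32.1), against 34.3% of the other sites (32.2 to 36.4) and 25.0% of the precursor-arm sites. By gene, 17 had reads in both libraries, 14 in the dark library alone and 41 in the light library alone. Over all 823 genes, 413 had dark reads, 665 had light reads and 255 had both. No member site with dark reads alone had more than 2, while member sites with light reads alone reached 17. Among the other sites these highest counts were 7 and 20. At these depths a gene with no light read needed 4 dark reads, and a gene with no dark read needed 10 light reads, before the counting interval left out equal levels.

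At the 41 sites read in both libraries the median log2 ratio of light over dark TPB was -0.56, with 7 sites above and 34 below equal levels. These sites include transcript versions with the same reads and are not independent. The other sites read in both had a median of -0.16. Counted as distinct cuts, 2 of 17 member cuts lay above and 15 below, with a median ratio of 0.510, against 117 above and 192 below of 309 other cuts, with a median of 0.878. The member cuts had a median of 7 reads and the others 9, and a cut with 1 read in each library has a ratio of 0.453 from the read totals alone. The part of low counts in this difference was not tested.

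Degradome categories rank a site against other reads on its transcript: by common usage 0 is the single highest position, 2 lies above the transcript's median, 3 at or below it, and 4 is a position with 1 read. All member sites of category 4 did have 1 raw read, 41 in the dark and 43 in the light library. Of 33 distinct member cuts in the dark library 1 was of category 0 (3.03%, Wilson 95% interval 0.537 to 15.3), 15 of category 2 and 17 of category 4. Of 61 in the light library none was of category 0, which allows a share of up to 4.92% by a limit of 3 counts and 5.92% by the Wilson interval, while 31 were of category 2, 6 of category 3 and 24 of category 4. Among the other cuts, category 0 made up 48 of 478 in the dark and 55 of 761 in the light library (7.23%). In the light library the share for the other cuts was thus above both limits, and in the dark library it lay inside the members' interval. The precursor-arm sites were also low in category 0, with 3 of 530 sites in the dark and 10 of 926 in the light library, against 3 of 78 and 0 of 127 member sites. The low share is therefore not particular to the PC- sites.

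**Figure D2:**
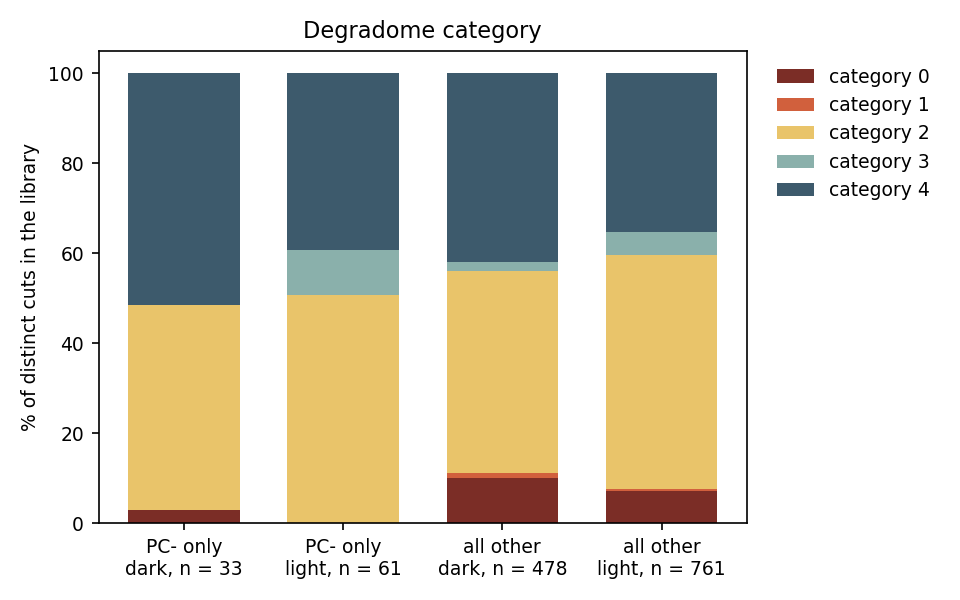
Degradome category of distinct cuts, in percent of the cuts with reads in each library, for cuts of PC- names alone and all other cuts. Category 0 is a thin layer for the members in the dark library (1 of 33), is missing in the light library (0 of 61), and makes up 48 of 478 and 55 of 761 of the other cuts.

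The authors' deposited p-value for a site was at most 0.05 at 3 of 78 member sites in the dark library (3.85%) and at none of 127 in the light library, against 100 of 997 and 113 of 1554 other sites. Among the precursor-arm sites it was 5 of 530 and 7 of 926 (0.943% and 0.756%). For a site with several names the lowest p-value was taken. The lowest deposited p-values among members were 0.0364 in the dark and 0.0614 in the light library. The 3 dark sites were the transcript versions of 1 gene, ZS05g0596900, and were the same 3 sites that had category 0.

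A light over dark ratio was called higher or lower where it reached 2-fold and its 95% counting interval, from the raw reads, left out equal levels. Where 1 library had no read, the ratio was taken as beyond 2-fold, so the interval alone decided. Over all listed genes, 3.28% were called higher and 2.31% lower. Of the 72 member genes 1 was called higher and 2 lower, and 69 were not called. Over all sites 2.52% were called higher and 2.37% lower, and the members gave 1 higher and 5 lower sites of 164, of which 4 lower sites carry the same read numbers. The members' shares are near these background shares, and the counts are small.

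**Figure D3:**
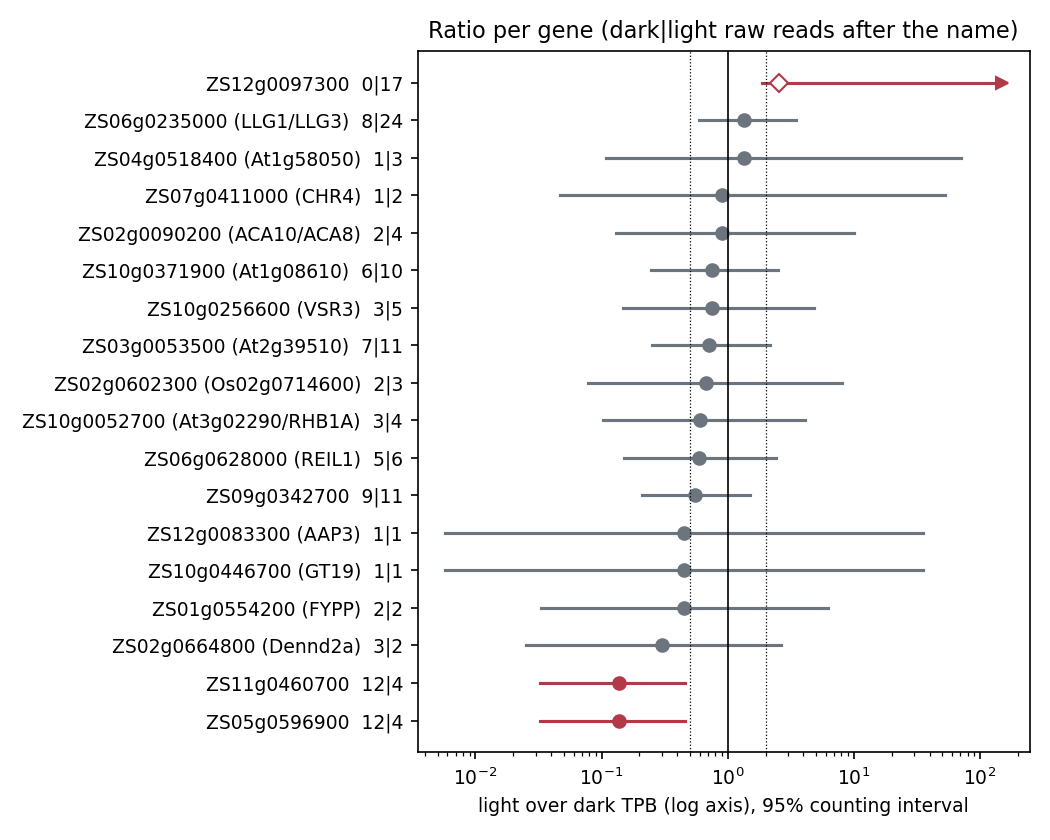
Light over dark TPB ratio on a log axis for the 17 member genes with reads in both libraries and for ZS12g0097300, with 95% counting intervals, raw reads after each name, and dotted lines at 2-fold. The open diamond is the fold against 3 dark reads, and the intervals of all but 3 genes cross equal levels.

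The 276 raw reads at member cuts, 95 dark and 181 light, were concentrated in few genes. The 8 genes with 10 or more reads held 146 of them (52.9%), while 33 genes had 1 read, 25 had 2 to 4 and 6 had 5 to 9. Both sums, 276 and 146, count the same 12 dark and 4 light reads once for ZS05g0596900 and once for ZS11g0460700. The sum of 276 also counts the same 3 light reads for ZS04g0683300 and for ZS07g0406700. The plot of raw reads by gene shows those with 5 or more.

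**Figure D4:**
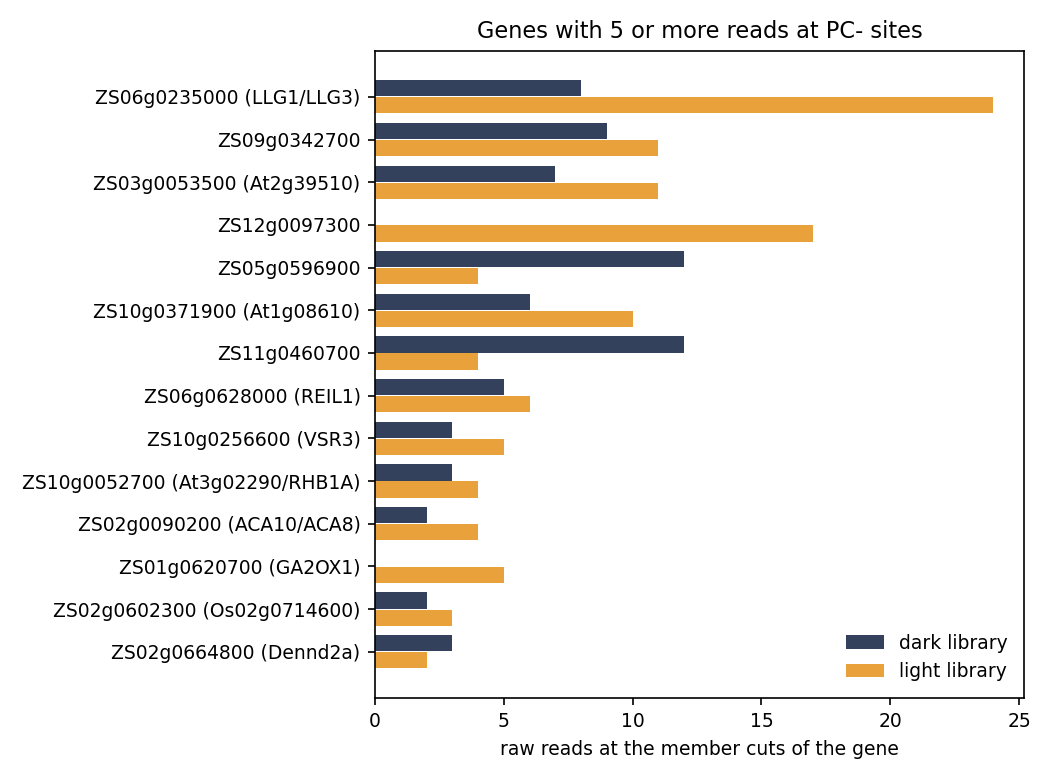
Raw reads at the member cuts of each gene with 5 or more, in the dark and light libraries, not corrected for depth. ZS06g0235000 leads with 8 dark and 24 light reads, ZS12g0097300 and ZS01g0620700 have light reads alone, and ZS05g0596900 and ZS11g0460700 have 12 dark and 4 light reads each.

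The candidate PC-3p-104941_6, 24 nucleotides long and starting with A, had more raw reads than any other PC- name at member cuts. It was listed with 73 transcripts of 38 genes, and 21 of those pairs had reads, 43 dark and 52 light over its distinct cuts, with the reads of ZS05g0596900 and ZS11g0460700 each counted. Its best covered target was ZS06g0235000, to which the table gives the symbols LLG1 and LLG3, GPI-anchored proteins that in Arabidopsis act as partners of receptor-like kinases of the FERONIA group. That site lay at position 683 of transcript ZS06t0235000-02, with a penalty of 3 and category 2 in both libraries. It had 8 dark and 24 light reads, or 519 and 705 TPB, a ratio of 1.36 (95% counting interval 0.591 to 3.50). This interval holds equal levels, and no other member site had more reads.

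The same candidate was paired with both genes called lower in the light. ZS05g0596900, without a symbol or GO term in the table, was cut at positions 2481, 2523 and 2620 of 3 transcript versions. Each version carried 12 dark and 4 light raw reads, a ratio of 0.138 (0.0325 to 0.457), and category 0 in the dark but 2 in the light library. ZS11g0460700, whose GO terms are chloroplast and integral component of membrane, was cut at position 4048 and had the same 12 dark and 4 light reads and the same ratio. The authors' normalized dark value was 3 at each of these 4 places, which is the 12 reads divided over 4 matching places. The 2 calls thus carry the same read numbers, and cannot be counted as separate observations.

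A further target of PC-3p-104941_6 was ZS10g0371900, a pentatricopeptide repeat gene (At1g08610 in the table), a family that processes organelle RNA. Its cut at position 2294 of transcript ZS10t0371900-01 had 5 dark and 10 light reads and a penalty of 2, the lowest found at a member site. With a cut of PC-5p-41501_56 the gene had 6 dark and 10 light reads, a ratio of 0.755, not called. ZS06g0628000, named REIL1 after a factor that matures the large ribosomal subunit, had cuts of PC-3p-104941_6 at 108 and PC-3p-109443_6 at 106 of transcript ZS06t0628000-04. The gene had 5 dark and 6 light reads, a ratio of 0.589. At1g58050, an RNA helicase gene (ZS04g0518400), had 1 dark and 3 light reads, a ratio of 1.36 (0.109 to 71.3).

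ZS12g0097300 was the gene called higher in the light. It has no symbol or GO term, and its cut at position 414 of transcript ZS12t0097300-01 was assigned to PC-5p-44334_48. It had no dark read and 17 light reads, or 499 TPB, which is 2.57-fold higher against the 3 reads that a count of 0 allows in the dark library. The 95% counting interval of the ratio, which also covers the error of the 17 reads, started at 1.87. The penalty was 4, the category 3 and the authors' deposited p-value 0.632. At position 416 of the same transcript, 2 bases away, lay a site of a variant of the MIR7694 5′ arm, printed above, with no dark read and 16 light reads. The 2 small RNAs share 10 bases offset by 2, so 17 and 16 reads started at neighbouring positions under overlapping alignments. Which small RNA, if either, guided the cuts was not tested.

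PC-5p-44334_48 and the MIR7694 variant also met 2 bases apart in ZS12g0083300, named AAP3 after an amino acid permease, with 1 dark and 1 light read at the member cut and 3 dark reads at the other. They met again in ZS01g0763600, with 1 light read at each cut. There the neighbouring site was also paired with osa-MIR1862c-p5, which shares 12 bases with PC-5p-44334_48 and had a penalty of 3, against 4 for the MIR7694 variant. The targets of PC-5p-44334_48 also included Dennd2a (ZS02g0664800), with 3 dark and 2 light reads, a ratio of 0.302 that was not called.

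ZS03g0053500, given as At2g39510 and annotated with transmembrane transport, carried 2 member cuts 4 bases apart on transcript ZS03t0053500-01, and they ran in opposite directions. Their small RNAs, with the seeds in capitals, share 8 bases offset by 4.
PC-3p-73426_13: gATTCGTCtcgcgatttctcc
PC-3p-84035_10: cGTCTCGCaaaatagtctagagg
The cut of PC-3p-73426_13 at 1443 had 7 dark and 2 light reads, a ratio of 0.129 (0.0131 to 0.680), and was called lower. The cut of PC-3p-84035_10 at 1439 had no dark and 9 light reads and was not called. Summed over both cuts the gene had 7 dark and 11 light reads, 454 and 323 TPB, a ratio of 0.712, not called. Both sites had a penalty of 4.

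A cluster of 3 cuts lay within 7 bases in ZS09g0342700, a gene whose GO term is mitochondrion. On transcript ZS09t0342700-03 the cut of PC-5p-17234_273 at 832 had 1 dark read, that of PC-5p-68251_16 at 835 had 2 light reads, and that of PC-5p-41501_56 at 839 had 8 dark and 9 light reads. The gene's ratio was 0.554 (0.209 to 1.51), not called. Among members, 20 sites of 8 genes had another read site within 30 bases, a site of another name in 5 genes and another member site in 3. Transcript versions count separately in the 20. The same share over all sites is not given here, so no comparison is made.

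In addition, 14 member sites of 8 genes (11.1% of member genes) lay under a listed alignment of a name that is not PC-. The cut was opposite bases 5 to 20 of that small RNA and in no case opposite base 9, 10 or 11. The choice of members set this in advance and it is no finding. Sites were listed with those bases at the cut, so such a name would have been paired with the site and removed it. Apart from the MIR7694 pairs, these included GA2OX1 and WAKL8. Non-member sites with reads were present in 11 member genes. ZS10g0052700, given as RHB1A and At3g02290, had 7 light reads at sites of the miR159 family beside 3 dark and 4 light reads at its cut of PC-3p-85227_9. Its description in the table is a ribosomal protein, which disagrees with those symbols.

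GA2OX1 (ZS01g0620700), a gibberellin 2-oxidase that inactivates this growth hormone, was the sole member with a gibberellin term. Its cut at position 1433 of transcript ZS01t0620700-01 was assigned to PC-5p-78043_11, with no dark and 5 light reads, or 147 TPB, and a penalty of 4. The light value is under the TPB of 3 dark reads, 195, so no fold is given and the gene was not called. The near copy osa-MIR827-p5 was listed over the same cut, opposite its base 8, without detection. WAKL8 (ZS07g0408200), a wall-associated kinase-like gene had 2 light reads at a cut of PC-3p-69767_15, with the MIR5799 variant listed over the cut opposite its base 13.

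The remaining genes with 5 or more reads had cuts in both libraries, and none was called. VSR3 (ZS10g0256600), a vacuolar sorting receptor, had 3 dark and 5 light reads at the best covered site of PC-3p-46967_42, a ratio of 0.755. ACA8 and ACA10 (ZS02g0090200), calcium pumps, had 2 dark and 4 light reads, a ratio of 0.906. Os02g0714600 (ZS02g0602300), annotated with ribose phosphate diphosphokinase activity, had 2 dark and 3 light reads at the best covered site of PC-3p-109443_6. Both candidates thus rest on few reads in any 1 gene.

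The best covered sites of PC-5p-27722_131 and PC-3p-54817_28 were thinner still. PC-5p-27722_131 had 2 light reads in PRH (ZS02g0055800), and PC-3p-54817_28 had 1 light read in ZS01g0651100.

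By annotation, 64 of the 72 member genes had a GO term, as had 722 of all 823. Nucleus was given to 17 member genes (26.6%) against 38.6% of all, and transcription factor activity to 5 (7.81%) against 13.0%. Integral component of membrane was given to 12 (18.8%) against 9.83%, and Golgi apparatus to 7 (10.9%) against 5.12%. These are descriptions of small counts, and no enrichment test was made.

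Word lists over symbols, descriptions and GO terms gave a like picture. They count word matches, so a list can hold genes of another kind. The transcription factor list matched 8 member genes (11.1%) against 17.3% of all genes, more than the 5 with the GO term transcription factor activity. None of the 8 had more than the 3 reads of CHR4 (ZS07g0411000), a chromatin remodelling gene and no sequence-specific factor, with 1 dark and 2 light. Transporters numbered 5 (6.94% against 3.89%), led by ZS03g0053500. The ribosome and translation list matched 6 (8.33% against 6.32%), led by REIL1. It includes ZS10g0052700, through the description that disagrees with its symbols. RNA processing had 5, led by At1g58050, and ubiquitin and F-box genes had 4, led by ZS10g0052700. The kinase list had 5, of which ZS02g0602300 was matched through the word diphosphokinase and is no protein kinase. PI4KB1 (ZS11g0102900), also on it, is annotated as a phosphatidylinositol kinase. No member of any list was called except through single sites of ZS03g0053500.

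The photosystem and chlorophyll list had 3 members (4.17% against 2.55% of all genes), all with light reads alone and 4 reads together. They were ZS03g0506800 with 2 reads, ZS10g0359900 with 1, and PORB (ZS10g0390600), the enzyme that makes chlorophyllide in the light, with 1. The light signalling, cytokinin, jasmonate, heat shock, cytoskeleton, transposon and small RNA machinery lists had no member. Over all 823 genes they matched 5, 4, 4, 7, 11, 0 and 2 genes, in that order. With so few matches, the lack of a member says little about the PC- sites. Auxin, brassinosteroid, ethylene and abscisic acid had 1 each, with 1 to 3 light reads and none in the dark. The abscisic acid gene was BZIP63 (ZS12g0473800), a transcription factor of the energy response in Arabidopsis, with 1 light read at a cut of PC-3p-70893_14. Light reads alone were the common case, found in 41 of the 72 member genes, and the light library was the deeper one. A gene without dark reads needed 10 light reads for a call, so none of these genes could be called. Redox enzymes had 4 members, among them ZS04g0683300 and ZS07g0406700 with the same 3 light reads. The cell wall, histone and chromatin, disease resistance and pentatricopeptide lists had 2 each.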

How the data were processed

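Total RNA from mesocotyls was sequenced as 2 degradome libraries, per the labels. Per the file headers, the authors deposited for each pair of small RNA and transcript the raw read counts at the cleavage position, a normalized signal, TPB, a p-value and a category per library, an alignment score, and a log2 ratio between libraries that was not used here. The deposited normalized signal lies at or below the raw reads, as when each read is divided by its number of matching places, though the quotient is not always whole, and TPB is that signal times 1 constant per library, whose inverse gave the read totals. No source used here names the aligner, the target finder or the genome build. Positions are on the deposited transcripts. A deposited column headed 1 h dark was read as the dark library, because its values times that constant give the TPB column of the library of 5 days. A further 20 columns of values per sample were not used.

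Sites were collapsed with Python 3.11.15, pandas 2.3.3, NumPy 2.4.6 and SciPy 1.17.1. Gene TPB was summed over transcript versions and positions, and gene reads were taken from the version with most reads. The counting interval is the exact Clopper-Pearson interval of the light share of raw reads, scaled by the read totals. Where both libraries had reads, both ends were also multiplied by the TPB ratio over the raw read ratio. The division of reads over matching places was thus taken as free of error. Intervals cover counting error only. Calls were tested on simulated data. The members, word lists and named genes (category 0 sites, the 12 genes with most reads, called genes, the 8 names with most genes and each one's best site, the best covered gene of each word list) were chosen with earlier results of these data known. AAP3, Dennd2a, WAKL8, ZS01g0763600 and ZS10g0359900 were named outside this rule, after their values were seen. The best covered site of 1 of the 8 names is not reported here. The actin pattern of the cytoskeleton list was narrowed to the whole word after it had matched unrelated text. Gene identifiers were not matched to a reference.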

Additional observations from a re-analysis of the deposited data

How the results depend on the processing

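The counts of calls, of sites per library, of sites read in both and of category 0, and the median ratio, were recomputed under other scalings and filters, and ratios of named genes under other scalings alone. Shares of pairs, small RNA features and annotation counts were not recomputed. Of the recomputed counts and medians, 45 stayed close and 23 moved, and the median log2 ratio ranged from -2.85 to -0.14. Raw reads over read totals, at least 5 reads, at least 1 PC- name and a thinned light library were also tried and are among those that stayed close. The limit for close was wide. It took in the thinned light library, with 87.4 light sites against 127 and 34.7 sites read in both against 41. Of the ratios, 32 kept their direction and 1 did not. The exception was ZS02g0090200, at 1.03 with the libraries set level by the median ratio of shared sites; this scaling, whose factor is -0.18 on the log2 scale, also gave 2 sites called higher. Scaling by the sum over shared sites, with a log2 factor of 0.44, put the fold of ZS12g0097300 against 3 dark reads at 1.89. That is under 2-fold, but the gene was still called, since with no dark read the interval alone decided. With the authors' deposited p-value at most 0.05, 0 sites and 0 genes were called higher, 3 sites and 1 gene lower, and 3 sites were read in both libraries, with a median log2 ratio of -2.85. With an alignment score of at most 3, 0 sites and 0 genes were called higher, 3 sites and 1 gene lower, and 19 sites were read in both. Sites whose reads matched 1 place gave 1 lower site, 0 lower genes, 4 sites read in both and 0 of category 0. With transcript versions counted once, 3 cuts were lower, 17 were read in both and 1 was of category 0. Without cuts under an alignment of another name, an alternative chosen after seeing the data, 0 sites and 0 genes were called higher. At least 2 reads in the library left 37 dark and 84 light sites. These last changes follow from fewer sites entering; the cause of the others was not tested. No paired analysis was possible because each condition had 1 library. Sites with reads matching several places made up 83.5% of member sites, against 79.2% of all sites. Such places include transcript versions of the same gene, so this is not a share of sites shared between genes. In addition, 44.5% of member sites had 1 read. Both points limit every value above.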
